A study of Homo sapiens with 12 samples.

Results

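CDKN1A, MDM2, BTG2, CCNG1, PPM1D, SESN1, GADD45A, PLK3, XPC and RRM2B are genes that the tumour suppressor p53 switches on to stop the cell cycle, to repair DNA and to restrain itself. They were taken by name: every probe whose deposited symbol was one of these 10 genes was followed in every array. This gave 17 of the 48797 probes. Each of the 10 genes kept at least 1 probe that reached an intensity of 64 on 3 or more of the 12 arrays, and 14 of the 17 probes did so. The 3 probes left out all belonged to MDM2, and none of the 3 reached 64 on more than 1 array. The brightest probe of each gene was tested, among 11443 genes in all.

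p53 is a transcription factor that is held at a low level by MDM2, a ubiquitin ligase that marks it for destruction. Breaks in DNA activate the kinases ATM and CHEK2, which free p53 from MDM2. The released p53 then drives cell cycle inhibitors such as CDKN1A, repair genes such as XPC, and its own inhibitors MDM2 and PPM1D, which close a negative feedback loop. Etoposide traps topoisomerase II on DNA and leaves such breaks.

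The arrays were Illumina BeadArrays of total RNA from HT1080, a long-established line of human fibrosarcoma cells. By their labels, one cell line carried the mutant ING2-6K/Rmt and the other ING2-WT. ING2 is a reader of methylated histone H3 in a SIN3 histone deacetylase complex, and the mutant has changed basic residues in the stretch that binds phosphoinositides. Each line received 100 uM etoposide or the solvent DMSO for 16 h. The 4 groups, each of 3 arrays numbered 1 to 3, were 6K/Rmt with etoposide, 6K/Rmt with DMSO, WT with etoposide and WT with DMSO. Both lines had been made by stable transduction and still had their own ING2 gene. Elsewhere the study states a different duration for its expression measurements.

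The labels call for care. ING2 itself, on the probe tested, read 11846, 8853 and 206 on arrays 1, 2 and 3 of 6K/Rmt etoposide, and between 140.0 and 556 on the 6K/Rmt DMSO arrays. On the WT arrays it read 284 to 478 with etoposide and 174 to 650 with DMSO. The high ING2 signal was thus on 2 arrays of 1 group, and neither the other 6K/Rmt arrays nor the WT arrays, whose line also carried an added ING2, showed it. CDKN1A and MDM2, which DNA breaks are known to raise, read lower on every etoposide array than on every DMSO array of those labelled 6K/Rmt. These arrays are therefore called "labelled 6K/Rmt" here, and whether the treatments and lines of any array, WT included, are as labelled was not tested. On the first principal component, which held 33.7% of the variance, all 4 arrays numbered 3 lay at 18.0 or above, with ING2-WT etoposide array 3 at 128, and the other 8 arrays lay at -5.76 or below. The results below are therefore given with and without array 3 of each group. Of 10 mesenchymal markers, 9 reached 64 on at least 1 array, and their summed signal was 39472 to 55291 with etoposide and 35423 to 44622 with DMSO on arrays labelled 6K/Rmt, and 23946 to 36857 with etoposide and 28662 to 50980 with DMSO on WT arrays. The defining blood markers PTPRC and CD3E stayed under 64 on all arrays, with 56.7 the highest PTPRC reading. The summed signal of the 8 blood markers measured was 2994 to 4361 with etoposide and 4393 to 6171 with DMSO on arrays labelled 6K/Rmt, and 4668 to 10099 with etoposide and 1553 to 3890 with DMSO on WT arrays. Nearly all of this sum was CD68, a lysosomal protein that cells other than macrophages also make. The summed signal of 9 epithelial markers was 653 to 789 with etoposide and 657 to 849 with DMSO on arrays labelled 6K/Rmt, and 1039 to 1793 with etoposide and 808 to 868 with DMSO on WT arrays. The blood marker sum moved with the p53 targets, and the part of any marker list in the results was not tested. In bulk RNA, more cells with a transcript and more transcript per cell cannot be told apart.

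p53 binds DNA as a tetramer, on a pair of copies of a 10-letter motif that is its own reverse complement in pattern. RefSeq promoter windows on GRCh38.p14, each 300 bases long with 250 before and 50 from the start site on, were at hand for 8 of the 10 genes, 14 windows in all. Of all 35116 such windows, 6.63% held a full copy of the motif on either strand, and 2.93% held a pair of copies at most 13 bases apart with at most 2 letters off. Among the members, an intact copy was found in 1 window of SESN1, at position -49 from the start. A pair was found only in the windows of the second, internal MDM2 promoter, at positions -94 and -101 from its 2 annotated starts. These stretches are shown because they hold the only matches in the members' windows. CDKN1A and BTG2, which were also called in the tests below, had no match in theirs. The capitals mark the matched positions, and in the MDM2 pair 2 of the letters in capitals are off the motif.
MDM2, chr12:68808893-68808972, plus strand: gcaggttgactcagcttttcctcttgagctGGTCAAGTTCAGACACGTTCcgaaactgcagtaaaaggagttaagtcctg
SESN1, chr6:109008998-109009067, minus strand: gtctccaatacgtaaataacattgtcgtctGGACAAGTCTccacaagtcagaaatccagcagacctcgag
The MDM2 pair lies in the first intron of the longer transcript and is known as a p53 response element. The best known p53 element of CDKN1A lies farther upstream than these windows reach. A match describes the letters in a window and no binding was measured here.

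CDKN1A (chr6:36676463-36687332) encodes p21, the inhibitor of cyclin-dependent kinases through which p53 stops cells before S phase. On the arrays labelled 6K/Rmt it read 5417, 5896 and 3069 with etoposide, against 16293, 14970 and 11504 with DMSO. On the WT arrays it read 15549, 14618 and 16638 with etoposide, against 4277, 3671 and 2964 with DMSO. The 2 groups of each line did not overlap, and the lines ran in opposite directions. The 6K/Rmt DMSO arrays and the WT etoposide arrays were the bright ones. CDKN1A fell by 1.61 on the log2 scale with etoposide on the arrays labelled 6K/Rmt (SE 0.31, limma adjusted p = 0.0208), to 0.327 of its DMSO level. It rose 4.33-fold in WT arrays (log2 change 2.11, SE 0.31, adjusted p = 0.00279). Within each replicate number, the WT change was 1.86, 1.99 and 2.49. The difference between the lines' changes was -3.73 (SE 0.43, adjusted p = 0.000273). With DMSO, CDKN1A was higher on arrays labelled 6K/Rmt than on WT arrays by 1.97 (adjusted p = 0.00362), and with etoposide it was lower, with a difference of -1.76 (adjusted p = 0.00979).

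The other CDKN1A probe was dim. It read 58.7, 58.6 and 38.8 with etoposide and 226, 158 and 109 with DMSO on arrays labelled 6K/Rmt, and 248, 225 and -5.65 with etoposide and 99.5, 72.0 and 38.2 with DMSO on WT arrays. The value below 0 was on ING2-WT etoposide array 3, where the brighter probe gave its highest reading. With the 6K/Rmt etoposide arrays set at 64, since all lay under it, the dimmer probe alone was at least 2.46-fold lower with etoposide on arrays labelled 6K/Rmt (adjusted p = 0.675, not called), and it changed by 0.57 in WT arrays (adjusted p = 0.770). The dimmer probe's own difference between the lines was not called (-2.19, SE 1.22, adjusted p = 0.350). When the log2 values of both probes were averaged, the difference between the lines was still called (-2.96, adjusted p = 0.0277). The 2 etoposide comparisons were then not called, with -1.62 (adjusted p = 0.235) for 6K/Rmt and 1.34 (adjusted p = 0.163) for WT, and neither were the comparisons of the lines in DMSO (1.62, adjusted p = 0.162) and in etoposide (-1.34, adjusted p = 0.132).

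**Figure D1:**
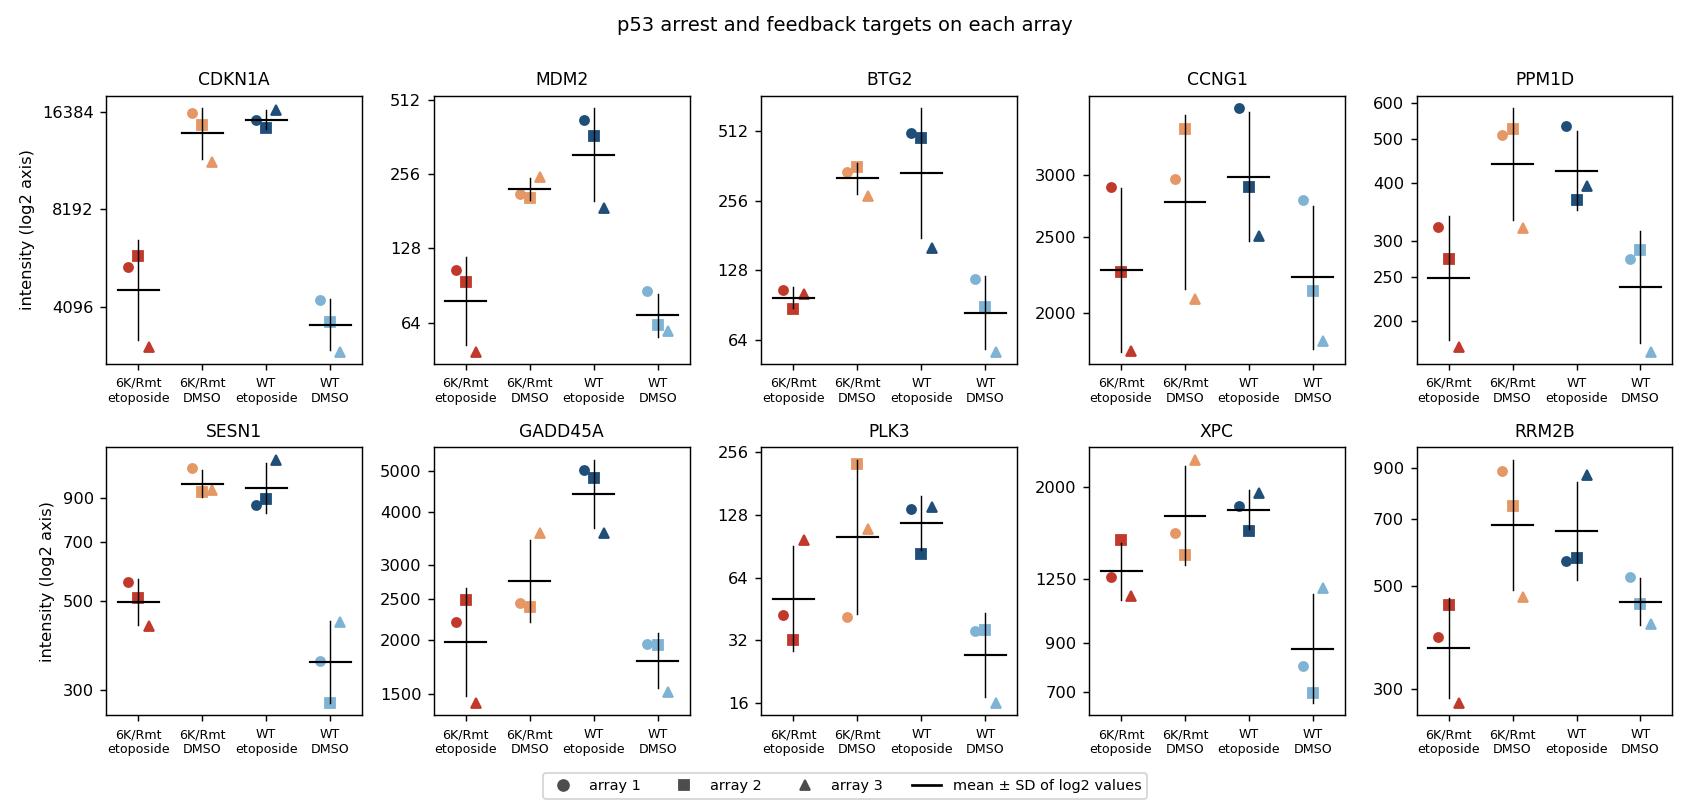
Intensity of each of the 10 genes (log2 axis, quantile-normalised, tested probe) on every array, by group; symbols mark the array number, horizontal bars the mean of log2 values and vertical bars its SD (n = 3). CDKN1A, MDM2, BTG2 and SESN1 were bright with DMSO on arrays labelled 6K/Rmt and with etoposide on WT arrays, and dim in the other 2 groups, whereas the CCNG1 groups overlapped.

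MDM2 (chr12:68808172-68850686), the ubiquitin ligase of the feedback loop, read 105, 93.5 and 48.7 with etoposide and 213, 206 and 250.1 with DMSO on arrays labelled 6K/Rmt. On the WT arrays it read 424, 365 and 187 with etoposide and 86.1, 62.6 and 59.3 with DMSO. No array of 1 treatment overlapped the other treatment within a line. Array 3 was the dimmest of the WT etoposide group. MDM2 rose 4.49-fold with etoposide in WT arrays (log2 change 2.17, SE 0.38, adjusted p = 0.00823). On arrays labelled 6K/Rmt it changed by -1.51 (SE 0.38, adjusted p = 0.0995), which did not pass. The difference was -3.67 (SE 0.54, adjusted p = 0.00154). MDM2 was higher on arrays labelled 6K/Rmt than on WT arrays with DMSO (1.70, adjusted p = 0.0408) and lower with etoposide (-1.97, adjusted p = 0.0152). The DMSO call was lost under 15 of 26 alternatives, with adjusted p up to 0.181. The 3 other MDM2 probes lay between -19.7 and 89.6 over all arrays. The single reading above 64 was on ING2-WT etoposide array 2.

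PPM1D and CCNG1 also act back on the p53 pathway. PPM1D (chr17:60600193-60666280), the phosphatase WIP1 that removes damage-induced phosphates from p53 and its kinases, read 321, 273 and 176 with etoposide and 511, 527 and 319 with DMSO on arrays labelled 6K/Rmt. On WT arrays it read 534, 368 and 395 with etoposide, against 273, 286 and 172 with DMSO. The treatments did not overlap on WT arrays, and on arrays labelled 6K/Rmt the highest etoposide array lay just above the lowest DMSO array. Its changes were -0.83 (SE 0.34, adjusted p = 0.458) on arrays labelled 6K/Rmt and 0.84 (SE 0.34, adjusted p = 0.203) in WT arrays, and their difference was -1.67 (SE 0.49, adjusted p = 0.0651). None of these passed. Blocking on the replicate number brought the WT change past the threshold (adjusted p = 0.0454, in a range of 0.0283 to 0.386 over all alternatives).

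CCNG1 (chr5:163437571-163457640), cyclin G1, recruits a phosphatase to MDM2 and had the smallest change of the 10 in both lines. It read 2899, 2254 and 1789 with etoposide and 2966, 3445 and 2086 with DMSO on arrays labelled 6K/Rmt, against 3661, 2902 and 2511 with etoposide and 2787, 2133 and 1841 with DMSO on WT arrays. The treatments overlapped in both lines. Its changes were -0.29 (SE 0.31, adjusted p = 0.805) on arrays labelled 6K/Rmt and 0.43 (SE 0.31, adjusted p = 0.488) in WT arrays. The dimmer CCNG1 probe, which read 15.9 to 90.0 over all arrays, changed by -1.15 in WT arrays (adjusted p = 0.424). With both probes averaged the WT change turned to -0.36 (adjusted p = 0.704).

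BTG2, GADD45A and PLK3 encode further brakes on growth. BTG2 (chr1:203305519-203309602), an antiproliferative protein that recruits the machinery that shortens mRNA tails, read 105, 86.6 and 101 with etoposide and 341, 358 and 270 with DMSO on arrays labelled 6K/Rmt. On WT arrays it read 502, 480.4 and 159 with etoposide, against 118, 88.5 and 56.8 with DMSO. The treatments stood apart in both lines, though WT etoposide array 3 was far below arrays 1 and 2. BTG2 rose 4.02-fold in WT arrays (log2 change 2.01, SE 0.44, adjusted p = 0.0234). On arrays labelled 6K/Rmt it changed by -1.72 (SE 0.44, adjusted p = 0.0995). The difference was -3.73 (SE 0.62, adjusted p = 0.00347). Between the lines BTG2 differed by 1.93 with DMSO (adjusted p = 0.0413) and by -1.79 with etoposide (adjusted p = 0.0378). These last 2 calls were lost under 15 and 16 of 26 alternatives, and the WT call under 7 of 26.

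GADD45A (chr1:67685201-67688334), a stress protein that binds PCNA and CDK1 and takes part in G2/M arrest, read 2203, 2484 and 1423 with etoposide and 2449, 2394 and 3563 with DMSO on arrays labelled 6K/Rmt. On WT arrays it read 5017, 4796 and 3577 with etoposide, against 1957, 1948 and 1511 with DMSO. The WT etoposide arrays were above all 9 others, by a small margin at array 3. GADD45A rose 2.46-fold in WT arrays (log2 change 1.30, SE 0.30, adjusted p = 0.0323), by 1.36, 1.30 and 1.24 within the 3 replicate numbers. This call was lost under 9 of 27 alternatives, with adjusted p up to 0.129. On arrays labelled 6K/Rmt it changed by -0.47 (SE 0.30, adjusted p = 0.663), and by -0.050 without the arrays numbered 3. The difference was -1.78 (SE 0.43, adjusted p = 0.0303) and was lost under 10 of 26 alternatives. Its other probe was also called higher in WT arrays (1.51, adjusted p = 0.0422, with adjustment over the 15459 probes) and lower in the difference (-2.37, adjusted p = 0.0207).

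PLK3 (chr1:44800377-44805990), a polo-like kinase of the stress response, was near the lower limit. It read 42.4, 32.0 and 96.8 with etoposide and 41.3, 225 and 109 with DMSO on arrays labelled 6K/Rmt, and 136, 82.6 and 139.8 with etoposide and 35.5, 36.0 and 15.3 with DMSO on WT arrays. All WT etoposide arrays lay above 64 and all WT DMSO arrays below it. Setting the WT DMSO arrays at 64, which stands for a signal not well above background, WT etoposide arrays were at least 1.82-fold higher (adjusted p = 0.0829, not called). The 6K/Rmt DMSO arrays spread from 41.3 to 225, and neither the change of -0.98 there (adjusted p = 0.657) nor the difference of -3.07 (SE 0.87, adjusted p = 0.0591), whose size rests on WT DMSO arrays under 64, passed.

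SESN1 (chr6:108984309-109094846), a sestrin that restrains the growth regulator mTORC1 under stress, read 557, 508 and 431 with etoposide and 1068, 928 and 939 with DMSO on arrays labelled 6K/Rmt, against 864, 893 and 1120.1 with etoposide and 355, 278 and 443 with DMSO on WT arrays. The treatments were apart in both lines. SESN1 rose 2.70-fold in WT arrays (log2 change 1.44, SE 0.26, adjusted p = 0.0102). On arrays labelled 6K/Rmt it changed by -0.98 (SE 0.26, adjusted p = 0.131). The difference was -2.41 (SE 0.37, adjusted p = 0.00217). With DMSO SESN1 was higher on arrays labelled 6K/Rmt by 1.47 (adjusted p = 0.00989), and with etoposide the line difference of -0.94 did not pass (adjusted p = 0.0604).

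XPC and RRM2B serve repair. XPC (chr3:14145147-14178601), which recognises bulky lesions for nucleotide excision repair, read 1258, 1520.4 and 1142 with etoposide and 1581, 1413 and 2295 with DMSO on arrays labelled 6K/Rmt, against 1810.4, 1596 and 1939 with etoposide and 801, 699 and 1194 with DMSO on WT arrays. Only the WT treatments were apart. XPC changed by 1.02 in WT arrays (SE 0.30, adjusted p = 0.0788) and by -0.41 on arrays labelled 6K/Rmt (SE 0.30, adjusted p = 0.699). The WT change passed with the replicate number as a block (adjusted p = 0.0372) and without the arrays numbered 3 (1.18, adjusted p = 0.00507), with adjusted p from 0.000485 to 0.246 over all alternatives.

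RRM2B, the p53-induced subunit of ribonucleotide reductase that supplies deoxynucleotides outside S phase, read 389, 455 and 279.5 with etoposide and 886, 745 and 474 with DMSO on arrays labelled 6K/Rmt. On WT arrays it read 568, 576 and 871 with etoposide, against 524, 457 and 415 with DMSO. The treatments were apart in both lines, by a small margin in each. RRM2B changed by -0.89 on arrays labelled 6K/Rmt (SE 0.32, adjusted p = 0.347) and by 0.51 in WT arrays (SE 0.32, adjusted p = 0.429). Its dimmer probe read 547, 610.2 and 111 on WT etoposide arrays and 322, 298 and 273 on WT DMSO arrays. Array 3 was thus the highest of the WT etoposide group on the brighter probe and the lowest on the dimmer one.

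**Figure D2:**
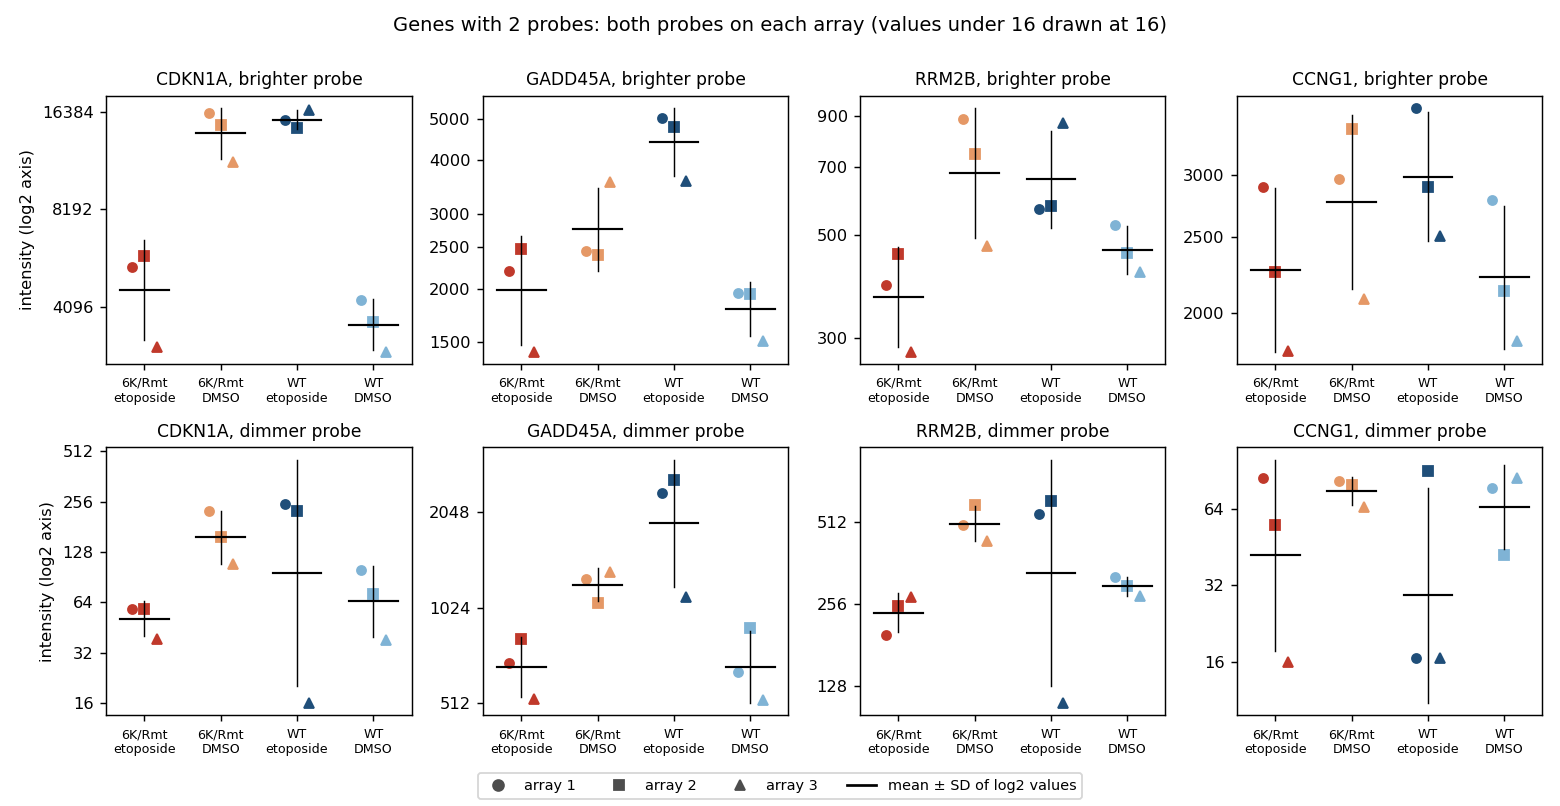
Both probes of CDKN1A, GADD45A, RRM2B and CCNG1 on every array (intensity, log2 axis; values under 16 are drawn at 16), by group, with array numbers as symbols and the mean ± SD of log2 values (n = 3). On ING2-WT etoposide array 3 the dimmer CDKN1A probe and the dimmer RRM2B probe lay below the other 2 arrays of the group, while the brighter probes lay above them.

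With etoposide against DMSO in WT arrays, 5 of the 10 genes were called higher (CDKN1A, MDM2, BTG2, SESN1 and GADD45A) and 0 lower. Of all genes tested, 1.93% were called higher and 2.95% lower. All 10 changes were above 0, with a median of 1.37 against -0.003 over all genes. For 9 of the 10, every etoposide array was above every DMSO array, as it was for 13.3% of all genes, and CCNG1 was the exception. Leaving out array 2 of WT DMSO left 2 calls, and leaving out array 1 or array 2 of WT etoposide left 3. Of all genes, 74, 97 and 134 were called higher in these fits, in that order, against 221 with all arrays. With array 3 of each group left out, 6 members were called higher, XPC being added, and of all genes 13.8% were called higher and 15% lower. Blocking on the replicate number gave 7 calls, with PPM1D and XPC added, and called 5.19% of all genes higher.

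On the arrays labelled 6K/Rmt, 1 of the 10, CDKN1A, was called lower and 0 higher, where 0.149% of all genes were called lower and 1.48% higher. All 10 changes were below 0, with a median of -0.93 against -0.026 over all genes. For CDKN1A, MDM2, BTG2, SESN1 and RRM2B every etoposide array was below every DMSO array, as it was for 9.67% of all genes. The CDKN1A call was lost, leaving 0 of the 10, when array 1 or 2 of 6K/Rmt DMSO was left out. It was also lost without array 1 or 3 of 6K/Rmt etoposide. In these fits 0, 2, 6 and 0 of all genes were called lower, in that order, against 17 with all arrays. Leaving out array 3 of WT etoposide, which enters the shared spread, gave 3 calls, with 41 of all genes called lower. With array 3 of each group left out, 6 members were called lower (CDKN1A, MDM2, BTG2, PPM1D, SESN1 and RRM2B), and of all genes 17.5% were called lower and 17.4% higher.

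**Figure D3:**
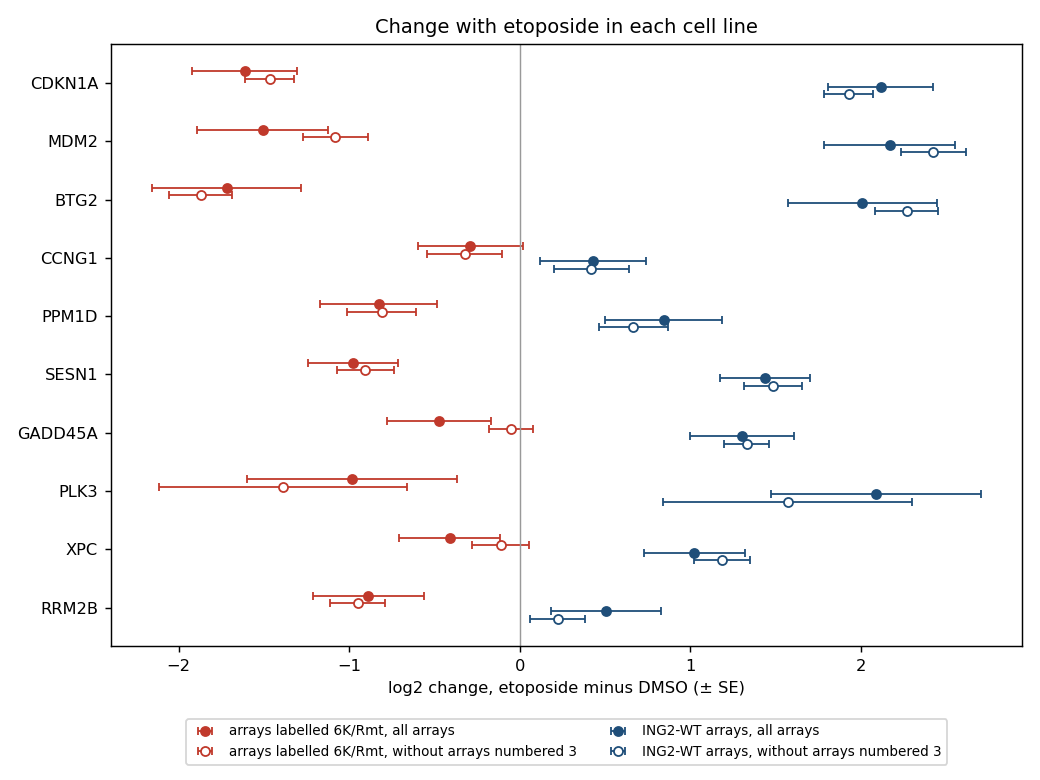
Log2 change of each gene with etoposide relative to DMSO (bars, SE), on arrays labelled 6K/Rmt and on ING2-WT arrays, with all arrays (filled) and without the arrays numbered 3 (open). All changes were below 0 on arrays labelled 6K/Rmt and above 0 on WT arrays, in both fits.

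The test of the difference between these effects called 5 genes lower (CDKN1A, MDM2, SESN1, BTG2 and GADD45A) and 0 higher, beside 2.65% of all genes lower and 3.85% higher. The median difference was -2.09, against 0.007 over all genes. The calls of CDKN1A, MDM2, SESN1 and BTG2 held under every alternative run, 25 or 26 for each. PLK3, PPM1D, XPC and RRM2B missed with differences of -3.07, -1.67, -1.43 and -1.39 and adjusted p between 0.0591 and 0.0988, and CCNG1 with -0.72 (adjusted p = 0.376). With array 3 of each group left out, 8 of the 10 were called lower, among 18.3% of all genes, and PLK3 and CCNG1 were not.

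Between the lines, 4 genes (CDKN1A, SESN1, MDM2 and BTG2) were called higher with DMSO on arrays labelled 6K/Rmt than on WT arrays and 0 lower, beside 0.306% of all genes higher and 2.18% lower. The median was 1.23, against 0.043 over all genes. PPM1D (0.89, adjusted p = 0.317), PLK3 (at least 1.57-fold higher, adjusted p = 0.199), XPC (0.98, adjusted p = 0.150) and GADD45A (0.62, adjusted p = 0.513) did not pass, though their groups did not overlap, as held in this direction for 8.5% of all genes. Leaving out array 1 or 2 of WT DMSO, or array 1 of 6K/Rmt DMSO, left 1 call. Of all genes, 17, 11 and 8 were then called higher, in that order, against 35 with all arrays. Leaving out array 3 of WT DMSO, array 2 or 3 of 6K/Rmt DMSO, or array 1 or 2 of 6K/Rmt etoposide left 2. In these fits 91, 14, 40, 26 and 21 of all genes were called higher, in that order. With array 3 of each group left out, 7 were called higher, among 11.6% of all genes.

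With etoposide, 3 genes (CDKN1A, MDM2 and BTG2) were called lower on arrays labelled 6K/Rmt than on WT arrays and 0 higher, beside 2.37% of all genes lower and 3.14% higher. The median was -1.05, against 0.033 over all genes. GADD45A (-1.16, adjusted p = 0.0501) and SESN1 (-0.94, adjusted p = 0.0604) just missed the threshold. For 8 of the 10, all but CCNG1 and PLK3, every array labelled 6K/Rmt was below every WT array, as it was for 19.2% of all genes. Leaving out array 1 of WT etoposide or array 3 of 6K/Rmt etoposide left 1 call. Leaving out array 3 of WT DMSO gave 5. Of all genes, 72, 73 and 489 were called lower in these fits, in that order, against 271 with all arrays. With array 3 of each group left out, 5 were called lower, among 20.5% of all genes.

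These 5 comparisons share arrays and are not independent of each other. By mean intensity, the order of groups was WT etoposide, 6K/Rmt DMSO, 6K/Rmt etoposide and WT DMSO for CDKN1A, MDM2, BTG2, CCNG1, GADD45A and XPC. PPM1D, SESN1 and PLK3 had the same order but with 6K/Rmt DMSO first, and RRM2B was lowest on 6K/Rmt etoposide arrays. The 2 leading groups overlapped in every gene but GADD45A, and the 2 trailing groups overlapped in all 10. The lower of the leading 2 groups and the higher of the trailing 2, by mean, did not overlap for CDKN1A, MDM2, BTG2, PPM1D, SESN1 and RRM2B. The share of all genes with such overlaps and gaps was not counted, so this order only describes the 10 genes.

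Over the 12 arrays, the log2 values of the members were positively correlated in all 45 pairs, with Pearson's r between 0.224 (CCNG1 and XPC) and 0.933 (CDKN1A and MDM2) and a median of 0.697. The arrays share groups and replicate numbers, so this is a description of 12 arrays. The share of positive pairs among all genes was not computed, so the 45 pairs have no background beside them. Among all genes kept, those most like CDKN1A were H2AC18 (r = 0.972), RHOB (r = 0.965) and H2AC20 (r = 0.963), and those most like MDM2 were GAMT (r = 0.967), SERTAD1 (r = 0.966) and DNAJB2 (r = 0.961).

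Relatives and partners of the members were counted in the same way. Of 21 tested, 5 were called higher and 0 lower with etoposide on arrays labelled 6K/Rmt, where 1.48% of all genes were higher, and 1 was higher and 4 were lower in WT arrays, where 1.93% of all genes were higher and 2.95% lower. Their medians were -0.042 and -0.17. When array 3 of each group was dropped, 6 were called higher and 4 lower on arrays labelled 6K/Rmt (17.4% and 17.5% of all genes), and 5 higher and 7 lower in WT arrays (13.8% and 15% of all genes). RRM2, the S-phase subunit that RRM2B stands in for, averaged 208 ± 12.9 with etoposide and 40.1 ± 2.25 with DMSO on arrays labelled 6K/Rmt, and 25.8 ± 27.7 with etoposide and 474 ± 279 with DMSO on WT arrays (SD, n = 3 each). It was below 64 on every 6K/Rmt DMSO and every WT etoposide array. It was thus at least 3.25-fold higher with etoposide on arrays labelled 6K/Rmt (adjusted p = 0.0389) and at least 6.37-fold lower in WT arrays (adjusted p = 0.00181). RRM1, the large subunit shared by both enzymes, changed by 1.98 (adjusted p = 0.00256) on arrays labelled 6K/Rmt and by -2.30 (adjusted p = 0.000938) in WT arrays.

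PLK4, the kinase that starts centriole duplication, averaged 523 with etoposide and 50.03 with DMSO on arrays labelled 6K/Rmt, and 80.1 with etoposide and 769 with DMSO on WT arrays, with changes of 3.42 (adjusted p = 0.000678) and -3.31 (adjusted p = 0.000919). PLK1, a mitotic kinase named here after its values were seen, changed by 1.31 (adjusted p = 0.0362) on arrays labelled 6K/Rmt and by -1.94 (adjusted p = 0.00243) in WT arrays. CDKN1B, the p27 inhibitor beside p21, changed by 1.12 on arrays labelled 6K/Rmt (adjusted p = 0.0310) and by -0.45 in WT arrays (adjusted p = 0.313). The CDKN1B call was lost when array 1 or 2 of any group, or array 3 of 6K/Rmt etoposide, was left out, with adjusted p of 0.0558 to 0.177. GADD45B, a paralog of GADD45A, averaged 332 with etoposide and 146 with DMSO on WT arrays (1.22, adjusted p = 0.0390), and its change on arrays labelled 6K/Rmt was -0.68 (adjusted p = 0.495). The GADD45B call was lost under 12 of 27 alternatives, with adjusted p up to 0.177.

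**Figure D4:**
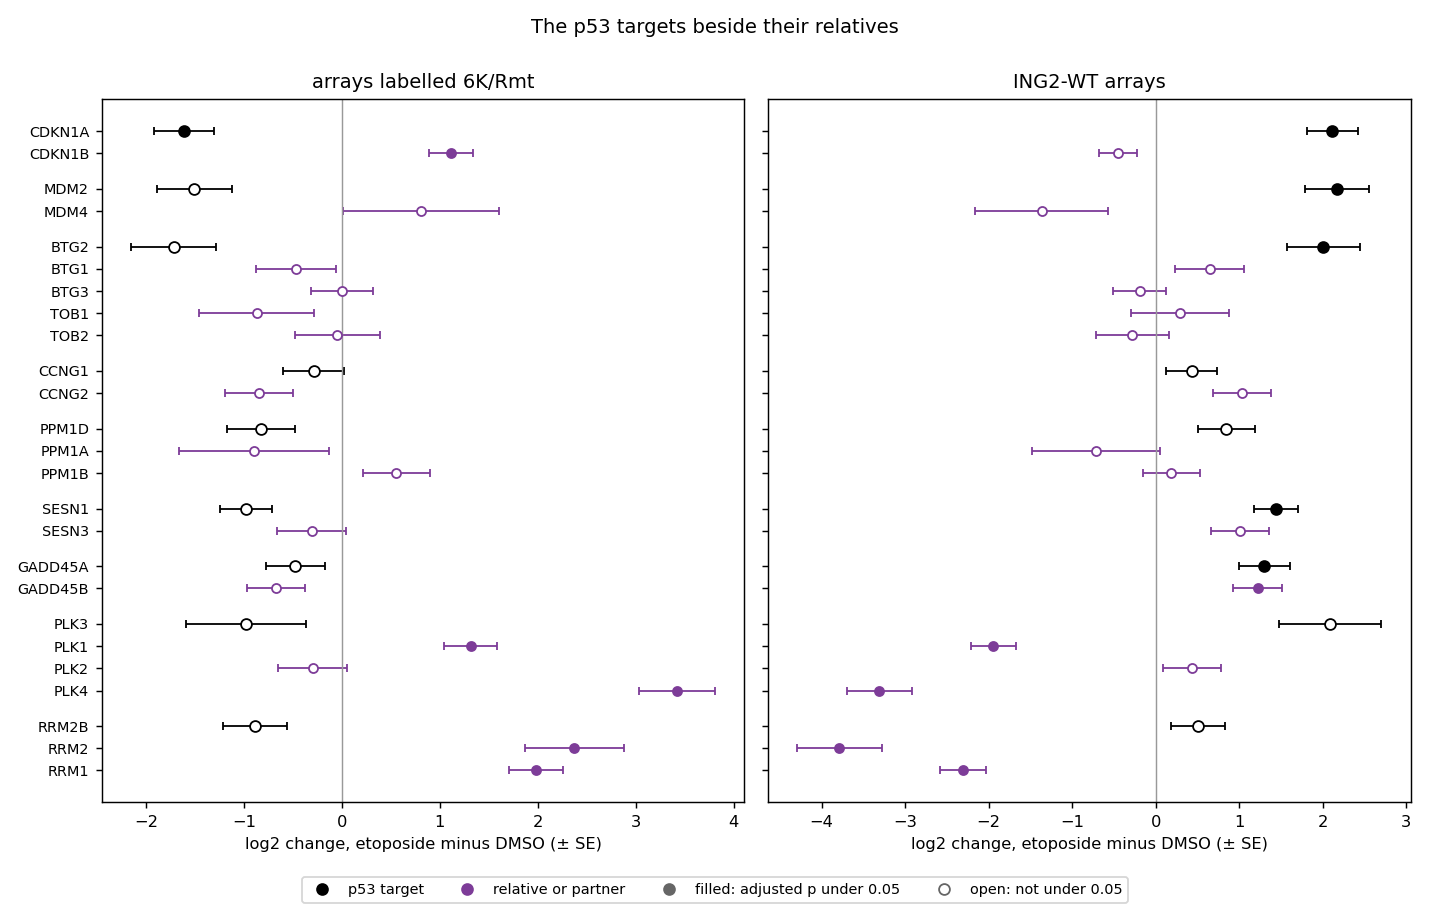
Log2 change with etoposide relative to DMSO (bars, SE) of 9 of the p53 targets (black) and their relatives or partners (purple), on arrays labelled 6K/Rmt and on ING2-WT arrays; filled points had an adjusted p under 0.05. PLK4, PLK1, RRM2 and RRM1 lay on the other side of 0 from PLK3 and RRM2B in both panels.

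The cyclins and kinases that p21 restrains, with their CDC25 activators and the RB and E2F genes, were also counted. Of 18 tested, 7 were called higher and 0 lower with etoposide on arrays labelled 6K/Rmt, where 1.48% of all genes were higher, and 0 higher and 8 lower in WT arrays, where 2.95% of all genes were lower. CCNB2, a mitotic cyclin, averaged 966 ± 119 with etoposide and 54.4 ± 15.2 with DMSO (SD, n = 3 each) on arrays labelled 6K/Rmt, and 144 ± 17.1 with etoposide and 1647 ± 576 with DMSO on WT arrays. Its changes were 4.19 (adjusted p = 7.91e-05) and -3.46 (adjusted p = 0.000384). CCNA2, the cyclin of S phase and G2, changed by 3.26 on arrays labelled 6K/Rmt and -3.05 in WT arrays, and CCNB1, the partner of CDK1 at entry into mitosis, by 3.75 and -4.41 in the same order. Leaving out array 1 or 2 of either 6K/Rmt group left 3 of the 7 calls. Leaving out array 1 of WT DMSO or array 3 of 6K/Rmt etoposide left 4. Of all genes, 101 to 112 were called higher in the former fits, and 135 and 113 in the latter, against 169. In WT arrays 5 calls were left when array 1 of WT DMSO was left out, where 168 of all genes were called lower, against 338. When array 3 of each group was dropped, 10 were called higher and 3 lower on arrays labelled 6K/Rmt (17.4% and 17.5% of all genes), and 0 higher and 12 lower in WT arrays (13.8% and 15% of all genes).

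Of 51 other established p53 targets tested, 0 were called higher and 3 lower with etoposide on arrays labelled 6K/Rmt, where 0.149% of all genes were lower, and 5 higher and 0 lower in WT arrays, where 1.93% of all genes were higher. The medians were -0.46 and 0.54. TP53I3, an oxidoreductase induced by p53, averaged 740.1 with etoposide and 2512 with DMSO on arrays labelled 6K/Rmt (-1.72, adjusted p = 0.0344), and 2776 with etoposide and 616 with DMSO on WT arrays (2.13, adjusted p = 0.00583). The TP53I3 call on arrays labelled 6K/Rmt was lost under 12 of 27 alternatives, with adjusted p up to 0.476. With all its probes averaged TP53I3 was called in neither line, at -1.02 on arrays labelled 6K/Rmt and 1.14 in WT arrays (adjusted p = 0.164). SERPINB5, maspin, changed by -1.61 on arrays labelled 6K/Rmt (adjusted p = 0.0132) and by 1.53 in WT arrays (adjusted p = 0.0109). KITLG, the ligand of the receptor KIT, fell by 1.45 on arrays labelled 6K/Rmt (adjusted p = 0.0189), a call lost under 7 of 27 alternatives with adjusted p up to 0.434. The difference between the lines called 10 of the 51 lower and 0 higher, beside 2.65% of all genes lower and 3.85% higher. Blocking on the replicate number gave 12 higher and 1 lower in WT arrays, beside 5.19% and 5.38% of all genes. The comparison of lines with DMSO called 3 higher and 0 lower, beside 0.306% of all genes higher and 2.18% lower. With the block it called 6 higher, beside 0.926% of all genes. Leaving out array 1 or 2 of WT DMSO left 3 calls in WT arrays, and leaving out array 3 of WT etoposide gave 9. Of all genes, 80, 74 and 251 were called higher in these fits, in that order, against 221. On arrays labelled 6K/Rmt, leaving out array 1 gave 1 call for etoposide and 0 for DMSO. Leaving out array 2 of either group or array 3 of etoposide gave 0. Of all genes, 6 were called lower without etoposide array 1 and 0 to 2 in the other fits, against 17. When array 3 of each group was dropped, 4 were called higher and 22 lower on arrays labelled 6K/Rmt, beside 17.4% of all genes higher and 17.5% lower, and 23 higher and 3 lower in WT arrays, beside 13.8% higher and 15% lower.

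Of 18 tested genes that act on p53 itself, 0 were called on arrays labelled 6K/Rmt, where 1.48% of all genes were higher and 0.149% lower. In WT arrays 1 was called higher, PPP1R13L, an inhibitor of p53 (1.63, adjusted p = 0.0302), beside 1.93% of all genes. At an unadjusted p under 0.05, 1 was higher and 0 lower on arrays labelled 6K/Rmt. The share of all genes at that threshold was not counted. The medians were 0.29 on arrays labelled 6K/Rmt and -0.64 in WT arrays, where 4 of the 18 changes were above 0. Over all genes they were -0.026 and -0.003. Without array 3 of each group the list medians were 0.47 and -0.038. The PPP1R13L call was lost when any WT DMSO array, array 1 of WT etoposide, array 1 of 6K/Rmt DMSO or array 2 of 6K/Rmt etoposide was left out, with adjusted p of 0.0504 to 0.128. Dropping array 3 of each group gave 5 higher and 0 lower on arrays labelled 6K/Rmt (17.4% and 17.5% of all genes), and 3 higher and 4 lower in WT arrays (13.8% and 15% of all genes).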

How the data were processed

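Total RNA was amplified, labelled with biotin and hybridised to Illumina BeadArrays, 1 array a sample, with 3 arrays in each of 4 groups. The authors processed the arrays in GeneSpring and deposited background-subtracted, scaled intensity values per probe, with some below 0; the scaling method is not given in the sources used here. Probe symbols, of unit "other", came from a deposited table whose 24 value columns match no sample label and were not used. Of 48797 probes, 12645 had no symbol, 50 had symbols turned into dates and 1 had several; 24094 symbols were current in RefSeq, 4444 were updated and 7563 kept as in the file.

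Intensities were quantile-normalised, floored at 16 and log2-transformed. Probes at 64 or more on at least 3 of 12 arrays were kept. The probe with the highest mean stood for a gene. A linear model of 4 group means was fitted with limma 3.58.1 in R 4.3.3 (two-sided moderated test, Benjamini-Hochberg adjustment over 11443 genes, called at adjusted p under 0.05) and tested on simulated data. The study calls its replicates biological, but neither it nor the labels say that arrays came from separate cultures, and the p-values then reflect nothing but array-to-array spread, which may be technical. The number of arrays is not the only known limit on the precision. Without the arrays numbered 3, the SE of the etoposide change in WT arrays fell for every member but PLK3. It fell from 0.306 to 0.144 for CDKN1A and rose from 0.614 to 0.729 for PLK3. A lower bound on a fold sets at 64 each array of a group that was under 64 throughout.

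Same-numbered arrays deviated together between WT groups (r = 0.244, 0.293 and 0.348 over genes) and between DMSO groups (0.491, 0.376 and 0.637). Blocked values are therefore given beside those results where they changed a call. Between the 6K/Rmt groups r was 0.403, -0.039 and 0.315, and blocked values are given further below. The members, and the lists of 58 other p53 targets, 20 genes acting on p53, 25 relatives and partners, 20 cyclin and kinase genes and 3 sets of cell type markers, were chosen with earlier results of these data known. All members were named; from each other list, up to 3 higher and 3 lower genes with the smallest adjusted p in each line; and the 3 genes most correlated with CDKN1A and with MDM2. Alternatives covered scaling, floor, filter, probe choice, block, weights, arrays, variance and threshold. Some results that the naming rule covers are not reported here.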

Additional observations from a re-analysis of the deposited data

Results flagged for a closer look

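For 5 of the 10 genes the effect of etoposide differed between the lines by a direct test of that difference (limma, change on arrays labelled 6K/Rmt minus change on WT arrays, log2 scale). The difference was -3.73 for CDKN1A (adjusted p = 0.000273), -3.73 for BTG2 (adjusted p = 0.00347) and -3.67 for MDM2 (adjusted p = 0.00154). In these genes, and in SESN1 (-2.41, adjusted p = 0.00217), all etoposide arrays were below all DMSO arrays on arrays labelled 6K/Rmt and above them on WT arrays. GADD45A differed by -1.78 (adjusted p = 0.0303), with overlapping groups on arrays labelled 6K/Rmt.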

How the results depend on the processing

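Each result was recomputed under 27 alternatives, 12 of which left out 1 array; a member that an alternative filtered out gave fewer. Of the members' changes, 266 of 267 kept their direction with etoposide on WT arrays, 267 of 267 on arrays labelled 6K/Rmt, 257 of 257 for the difference, 267 of 267 between lines in DMSO and 266 of 267 in etoposide. The 2 exceptions were CCNG1 with all its probes averaged, at -0.36 (adjusted p = 0.704) with etoposide on WT arrays and 0.065 (adjusted p = 0.940) between lines in etoposide; CCNG1 was called in neither. The counts below are of members called, and the cause of a shift was not tested. With array weights, whose estimation stopped before full convergence, 19.5% of all genes were called lower on arrays labelled 6K/Rmt, 20.2% lower for the difference, 14.1% higher in DMSO and 21.1% lower in etoposide.

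On WT arrays 5 were called. Among probes at 64 or more on all 12 arrays, 3 of 7 tested were called. Fitting only the compared groups gave 1, and an adjusted p of 0.01 gave 2. Of all genes, these settings called 119, 42 and 47 higher, in that order, against 221. On arrays labelled 6K/Rmt 1 was called. There were 0 under 75th percentile scaling, with deposited values, with probes averaged and at 0.01. Of all genes, 15, 14, 10 and 0 were then called lower, in that order, against 17. Without variance moderation there were 2, beside 32 of all genes. With array weights or without array 3 of each group there were 6. The difference, with 5, gave 9 with array weights and 8 without array 3 of each group. Between lines in DMSO 4 were called. There were 2 under 75th percentile scaling, cyclic loess, deposited values, no filter, the all-array filter (7 tested), no moderation and 0.01. Of all genes, 28, 32, 31, 44, 20, 53 and 8 were then called higher, in that order, against 35. With array weights or without array 3 of each group there were 7. In etoposide 3 were called, beside 271 of all genes lower. A floor of 64 gave 5, beside 396 of all genes. Leaving out array 3 of each group also gave 5, and array weights gave 7. There was 1 with only the compared groups or at 0.01, beside 135 and 39 of all genes. Leaving out 1 array at a time gave 2 to 5 on WT arrays and 0 to 3 on arrays labelled 6K/Rmt. It gave 4 to 7 for the difference, 1 to 4 in DMSO and 1 to 5 in etoposide. All genes called in the members' direction then numbered 74 to 300 on WT arrays and 0 to 41 on arrays labelled 6K/Rmt. They numbered 169 to 516 for the difference, 8 to 105 in DMSO and 67 to 489 in etoposide.

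With the replicate number as a block, 3 members were called on arrays labelled 6K/Rmt (MDM2 and BTG2 added). Between lines in etoposide 6 were called (PPM1D, SESN1 and GADD45A added). Deviations of same-numbered arrays had r of 0.403, -0.039 and 0.315 on arrays labelled 6K/Rmt. Between lines in etoposide r was 0.0999, 0.231 and 0.267. For the difference PPM1D and XPC were added. The block changed no call between lines in DMSO. It called 0.734% of all genes lower on arrays labelled 6K/Rmt, 7.59% lower for the difference and 9.11% lower in etoposide.

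The median of all genes moved by over 0.1 under some settings. For the difference it was 0.149 under 75th percentile scaling and 0.133 with deposited values, against 0.007. In etoposide it was 0.136 with deposited values, against 0.033. With 64 or more on all 12 arrays these medians moved the other way, to -0.124 for the difference and -0.108 in etoposide. On arrays labelled 6K/Rmt the median was 0.085 with deposited values, against -0.026. PLK3 and the dimmer CDKN1A and CCNG1 probes lay near or under 64, where bead intensities limit what can be told apart. The tested MDM2 probe was also under 64 on WT DMSO arrays 2 and 3 (62.6 and 59.3) and 6K/Rmt etoposide array 3 (48.7). BTG2 was under it on WT DMSO array 3 (56.8).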
